A study of Homo sapiens with 8 samples.

Results

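A group of 8 Notch pathway genes was followed through RNA-seq libraries of human pluripotent stem cells that lack a subunit of the kinesin-2 motor: the receptors NOTCH1, NOTCH2 and NOTCH3, and the gamma-secretase subunit genes APH1A, APH1B, PSEN2, NCSTN and PSENEN. They were picked by gene name, 8 of the 58302 genes in the table of counts, and the choice was made knowing their fold changes in the KIF3B comparison, where APH1B and NOTCH3 had already stood out. KIF3B values are therefore given as a description. KIF3A and KIF3B are the motor subunits of kinesin-2, which carries cargo outward along the primary cilium.

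The 8 libraries came from undifferentiated, untreated cells grown without feeders in mTeSR1 medium. From the induced pluripotent stem cell line WTC11 there were 2 control libraries (guide RNAs 1 and 2) and 3 KIF3B knockout libraries (guide 1, guide 1 and guide 2). From the embryonic stem cell line WA09 there were 2 control libraries and 1 KIF3A knockout library, all guide 1, so the KIF3A knockout has no replicate. The controls are isogenic. The series speaks of several clones without saying that each library was a clone or culture of its own, so the p-values rest on a spread among libraries that may be technical.

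Notch receptors are single-pass membrane proteins that bind Delta and Jagged ligands on neighbouring cells. After ligand binding, ADAM10 trims the receptor outside the membrane, and gamma-secretase then cuts it within the membrane. The intracellular domain so freed enters the nucleus and joins RBPJ at target genes. Gamma-secretase is a membrane protease built from a presenilin (its catalytic subunit, here PSEN2), nicastrin (from NCSTN), PEN-2 (from PSENEN) and 1 of the alternative scaffold proteins APH1A or APH1B.

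APH1A and APH1B are paralogs whose RNA took unlike values in the KIF3B knockouts, so the stretch where their coding sequences are most alike is shown, with capitals marking the bases that differ between them. Both are written 5′ to 3′, from coding base 464 to 553 of APH1A and from 461 to 550 of APH1B (GENCODE 29, GRCh38).

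APH1A: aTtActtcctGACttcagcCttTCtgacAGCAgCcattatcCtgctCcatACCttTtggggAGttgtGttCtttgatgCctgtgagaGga
APH1B: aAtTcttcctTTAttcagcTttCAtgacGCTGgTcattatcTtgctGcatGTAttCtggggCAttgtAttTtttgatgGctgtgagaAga

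In this 90-base window 65 bases are identical and 25 differ, an identity of 72.2%. Over 774 aligned coding bases the identity was 60.5%, and the longest identical run was 16 bases. Windows of 50 bases of the longest transcript were also sought in transcripts of other genes, in the sense direction only. Genes overlapping on the opposite strand, given with the gene positions below, are not covered by this search. No such window of APH1A or APH1B occurred in a transcript of another gene, and the same held for NOTCH1, NOTCH3, PSEN2 and NCSTN. For NOTCH2, 4.65% of such windows also occurred in AC239799.1, NOTCH2NLA, NBPF19, NBPF14 or NBPF26, and for PSENEN 14.7% occurred in AD000671.1, which had 0 counts. The counts of NOTCH2 and PSENEN are uncertain to the extent that such reads were shared or dropped.

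The receptor promoters are shown because the fold changes of NOTCH1, NOTCH2 and NOTCH3 had the same sign as each other in each knockout. Each run holds 250 bases before to 50 after the RefSeq start (GRCh38.p14, minus strand, written 5′ to 3′), and capitals mark GGGCGG, the GC box. The windows are chr9:136545999-136546298 for NOTCH1, chr1:120069613-120069912 for NOTCH2 and chr19:15200946-15201245 for NOTCH3.

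NOTCH1: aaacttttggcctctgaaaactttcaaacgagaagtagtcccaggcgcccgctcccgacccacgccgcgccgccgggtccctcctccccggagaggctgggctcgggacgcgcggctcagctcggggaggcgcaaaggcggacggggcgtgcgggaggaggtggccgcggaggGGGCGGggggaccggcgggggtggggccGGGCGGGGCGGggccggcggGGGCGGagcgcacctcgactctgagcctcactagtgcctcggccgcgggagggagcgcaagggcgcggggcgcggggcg
NOTCH2: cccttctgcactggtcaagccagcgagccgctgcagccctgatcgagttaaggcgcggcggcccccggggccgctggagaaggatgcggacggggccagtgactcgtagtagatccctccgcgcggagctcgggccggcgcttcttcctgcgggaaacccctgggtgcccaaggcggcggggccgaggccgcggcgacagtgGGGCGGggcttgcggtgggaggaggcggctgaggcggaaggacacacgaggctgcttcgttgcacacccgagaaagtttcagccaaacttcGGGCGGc
NOTCH3: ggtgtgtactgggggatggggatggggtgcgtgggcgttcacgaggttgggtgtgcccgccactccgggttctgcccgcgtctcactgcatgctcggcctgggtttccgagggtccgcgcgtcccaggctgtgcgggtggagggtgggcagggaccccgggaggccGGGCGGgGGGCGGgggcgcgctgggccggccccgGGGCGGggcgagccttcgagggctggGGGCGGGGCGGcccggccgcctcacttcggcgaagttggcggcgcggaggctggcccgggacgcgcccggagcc

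RefSeq promoters matched 7 of the 8 genes, all but APH1B. The GC content was 77.0% for NOTCH1, 70.3% for NOTCH2 and 78.3% for NOTCH3, against a median of 58.7% over all promoters. NOTCH1 held 4 GC boxes, 2 of them overlapping, NOTCH2 held 2, and NOTCH3 held 5, of which 2 overlapped. On either strand a GC box was found in 5 of the 7 promoters and in 45.0% of the 35116 promoters in the table. TGGGAA, the core that RBPJ binds, occurred in the PSENEN promoter and in none of the other 6, against 24.0% of all promoters. GGAATG, the TEAD core, and CCAAT each occurred in the APH1A promoter alone among the 7, against 14% and 34.6% of all promoters. These matches describe the letters of the windows.

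Of gene positions (GRCh38, GENCODE 29), NOTCH1 (ENSG00000148400) lies at chr9:136494433-136545786, NOTCH2 (ENSG00000134250) at chr1:119911553-120069626 and NOTCH3 (ENSG00000074181) at chr19:15159038-15200981, all on the minus strand. APH1A (ENSG00000117362, minus strand, chr1:150265399-150269580), NCSTN (ENSG00000162736, chr1:160343272-160358952) and PSEN2 (ENSG00000143801, chr1:226870184-226896105) share the long arm of chromosome 1. APH1B (ENSG00000138613) is at chr15:63276018-63309126 and PSENEN (ENSG00000205155) at chr19:35745114-35747519, both on the plus strand. Exons of APH1A share 490 bases with C1orf54, those of NCSTN 129 with COPA and those of PSENEN 332 with U2AF1L4, each on the opposite strand. PSENEN also shares 285 exon bases with AD000671.1 on its own strand. The use of strand in counting is not given in the sources used here, so reads from bases shared across strands cannot be assigned between the partners.

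Library totals ran from 2161890 to 2875163 counts, and all 8 genes passed the low-count filter. All 10 pluripotency markers, among them POU5F1 and NANOG, were above 20 CPM in every library (CPM, read counts scaled to library size with TMM over the genes tested), with summed levels of 3730 to 5380 CPM. In WA09, KIF3A RNA was 68.3 and 61.8 CPM without and 33.1 CPM with the KIF3A knockout. KIF3B RNA was 32.5 and 26.7 CPM in the WTC11 controls and 49.3, 37.4 and 38.4 CPM in the KIF3B knockouts, so the RNA level does not check those labels. In bulk RNA, fewer cells of a type and less RNA per cell cannot be told apart.

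Levels were compared between genes as CPM per kilobase of the longest transcript. APH1A was highest at 67.2 ± 7.18 CPM per kilobase (SD, n = 8 libraries), followed by NCSTN at 46.6 ± 7.25, PSENEN at 30.2 ± 5.23 and PSEN2 at 22.9 ± 4.38. NOTCH3 was the highest receptor at 18.1 ± 6.41 CPM per kilobase, and then came APH1B at 11 ± 4.59, NOTCH2 at 9.33 ± 4.51 and NOTCH1 at 3.48 ± 1.23. APH1A was above NCSTN in 7 of 8 libraries, and NCSTN above PSENEN and PSENEN above PSEN2 in 8 of 8, while with merged exons as the length NCSTN was above PSENEN in 5 of 8. PSEN2 was above NOTCH3 in 6 of 8 libraries and APH1B above NOTCH2 in 4 of 8, so neither pair separated beyond its spread. With merged exons NOTCH3 stood at 16.7 and PSEN2 at 15.1 CPM per kilobase, in the opposite order.

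**Figure D1:**
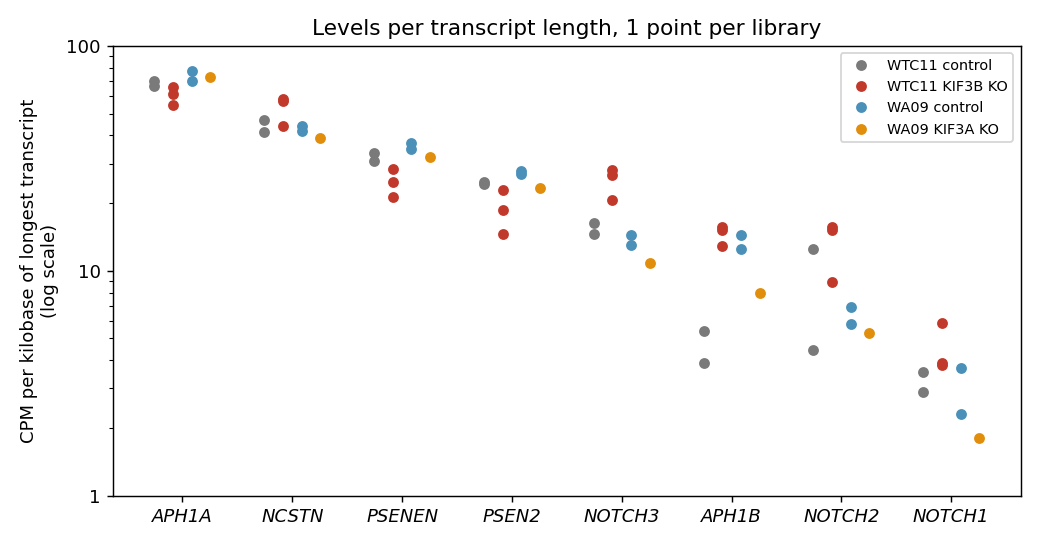
Levels of the 8 genes in CPM per kilobase of the longest transcript (log axis), 1 point per library and 1 colour per group. APH1A is at the top, at 67.2 on average, and NOTCH1 at the bottom, at 3.48, while APH1B spreads widely between the groups.

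NOTCH3 gave most of the receptor RNA in every library. Its share of the per-kilobase sum of the 3 receptors ran from 51.6% to 64.6%, that of NOTCH2 from 19.7% to 39.2% and that of NOTCH1 from 8.35% to 15.7%. The summed receptor level was 31.7 and 22.6 CPM per kilobase in the WTC11 controls and 33.5, 45.9 and 49.4 in the KIF3B knockouts. It was 23.6 and 22.5 in the WA09 controls and 17.9 in the KIF3A knockout. The KIF3B knockouts were above both of their controls in this sum, the first only narrowly, and the KIF3A knockout was below both of its own. Of all genes tested, 16.5% were above both controls in every KIF3B knockout, and 33% were below both in the KIF3A knockout. Since the receptors were selected on the KIF3B comparison, nothing is read from this order. NOTCH4, the remaining receptor gene, was scarce, at 0.917 to 9.99 CPM, and NOTCH2NL, a partial copy of NOTCH2, had 1 count in the KIF3A knockout and 0 elsewhere. How reads shared with NOTCH2 were counted is not known, so the NOTCH2NL counts do not show that this copy was silent.

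The first comparison sets KIF3B knockout against control in WTC11 cells. APH1B was about 3 times higher in the knockouts, NOTCH3 was higher in all 3, and APH1A, PSEN2 and PSENEN were slightly lower. Of the 8 genes, 3 (NOTCH1, NOTCH3, APH1B) had every knockout above both controls, where 16.5% of all genes tested did, and 3 (APH1A, PSEN2, PSENEN) had every knockout below both, where 18% did. Since the genes were selected on this comparison, nothing is read from these counts.

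APH1B, the less abundant of the scaffold subunits, measured 22.5 and 16.3 CPM in the WTC11 controls (49 and 36 counts) and 65.3, 63.4 and 53.9 CPM in the KIF3B knockouts (171, 146 and 150 counts). The groups were far apart, the lowest knockout lying above the highest control. Group means were 19.4 ± 4.34 CPM (SD, n = 2) and 60.9 ± 6.12 CPM (SD, n = 3). On the log2 scale the difference was 1.65 ± 0.28 (SE, edgeR), a fold of 3.13, and 1.51 with the transcript length trend removed. By guide, the ratio of knockout to control was 2.87 for guide 1 and 3.3 for guide 2.

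APH1A, the main scaffold gene, measured 165 and 156 CPM in the controls and 144, 154 and 128 CPM in the KIF3B knockouts. All knockouts were just below the controls, by -0.18 ± 0.13 on the log2 scale. As a share of APH1A plus APH1B per kilobase, APH1B made up 7.12% and 5.54% in the WTC11 controls and 20.3%, 18.8% and 19.2% in the KIF3B knockouts. In WA09 the share was 15.2% and 15.8% in the controls and 9.87% in the KIF3A knockout. The 3 KIF3B knockout shares were close to each other, and each was above every control of either line. As APH1B was selected on the KIF3B comparison, this order is a description. In CPM, APH1B in the KIF3B knockouts (53.9 to 65.3) overlapped the WA09 controls (52.6 and 60.7).

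**Figure D2:**
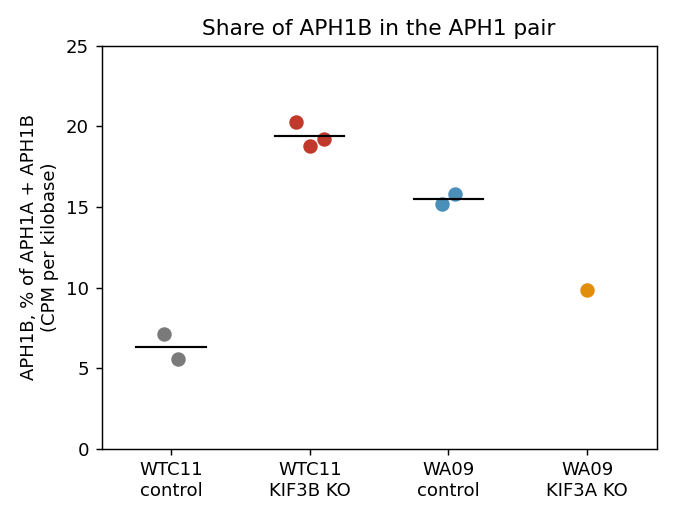
APH1B as a percentage of APH1A plus APH1B, both in CPM per kilobase, with 1 point per library and bars at group means where there are 2 or more libraries. The WTC11 controls lie lowest at 6.33% on average, the KIF3B knockouts highest at 19.4%, and the KIF3A knockout at 9.87% lies between the WTC11 and WA09 controls.

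The other subunit genes differed less. PSEN2, a presenilin gene, measured 61.0 and 59.8 CPM in the WTC11 controls and 56.1, 46.0 and 35.9 CPM in the KIF3B knockouts, with a log2 difference of -0.39 ± 0.25. PSENEN, whose product is needed to activate presenilin, measured 50.9 and 55.3 CPM against 47.0, 41.3 and 35.2 CPM, a log2 difference of -0.37 ± 0.24. For both genes the third knockout, the one made with guide 2, was the lowest. NCSTN, which encodes the substrate-recruiting subunit nicastrin, measured 125 and 142 CPM against 134, 176 and 173 CPM, and the groups overlapped (0.27 ± 0.16). With the length trend removed, the log2 differences were -0.32 for PSEN2, -0.12 for PSENEN and 0.26 for NCSTN.

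Among the receptors, NOTCH3 measured 142 and 126 CPM in the WTC11 controls (309 and 279 counts) and 179, 232 and 243 CPM in the KIF3B knockouts (468, 535 and 675 counts). All 3 knockouts were above both controls, the first by the least. The log2 difference was 0.70 ± 0.16, and 0.42 once the trend of fold change with transcript length was removed. NOTCH1 measured 27.0 and 33.1 CPM against 36.3, 35.6 and 54.6 CPM, a log2 difference of 0.49 ± 0.35 that was 0.20 with the trend removed and 0.26 without the third knockout. These receptors did not overlap between the groups, but 2 of the NOTCH1 knockouts were close to the higher control.

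NOTCH2 was the most uneven gene in the controls, at 142 and 50.8 CPM, against 102, 173 and 178 CPM in the KIF3B knockouts. Its log2 difference of 0.65 ± 0.38 rested on which control was used: it was 1.57 without WTC11 control 1 and 0.10 without WTC11 control 2. By guide, NOTCH2 had a knockout to control ratio of 0.973 for guide 1 and 3.5 for guide 2. NOTCH3 had ratios of 1.45 and 1.92, and NOTCH1 of 1.33 and 1.65.

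**Figure D3:**
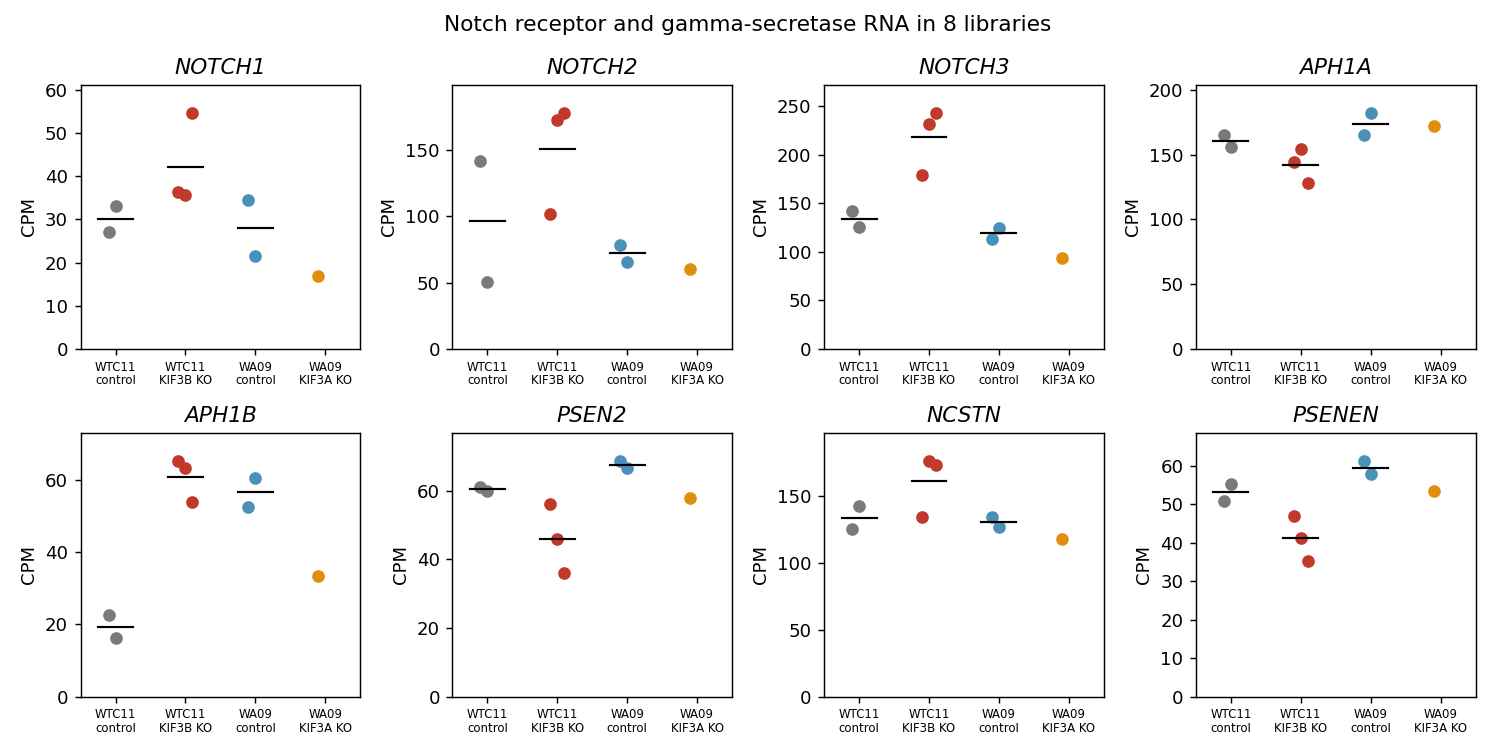
CPM of each of the 8 genes in the 8 libraries, 1 panel per gene with its own axis from 0, 1 point per library, and bars at group means where a group has 2 or more libraries. In the APH1B panel the WTC11 controls, at 22.5 and 16.3 CPM, lie below all other libraries, and NOTCH2 shows the widest spread within the WTC11 controls.

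Transcript length moved with the KIF3B fold changes. Across 14199 genes the rank correlation of longest transcript length with log2 fold change was 0.354 in the KIF3B comparison, a correlation across genes, which are not independent replicates, and -0.0374 in the KIF3A comparison. The receptor transcripts are long: 9306 bases for NOTCH1, 11389 for NOTCH2 and 8666 for NOTCH3, longer than 94.3%, 97.4% and 92.9% of genes tested. PSENEN (1661 bases), APH1A (2353) and PSEN2 (2465) are short, and APH1B (4189) is near the median of 3585. Both the receptors with higher values and the short subunit genes with lower values thus lay on the sides that the trend takes. NCSTN (3031 bases) is also shorter than the median but had a positive value of 0.27, and 0.26 with the trend removed. APH1B lay far above the trend. The part of the length trend in the receptor values was not tested beyond the trend-removed values given above.

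**Figure D4:**
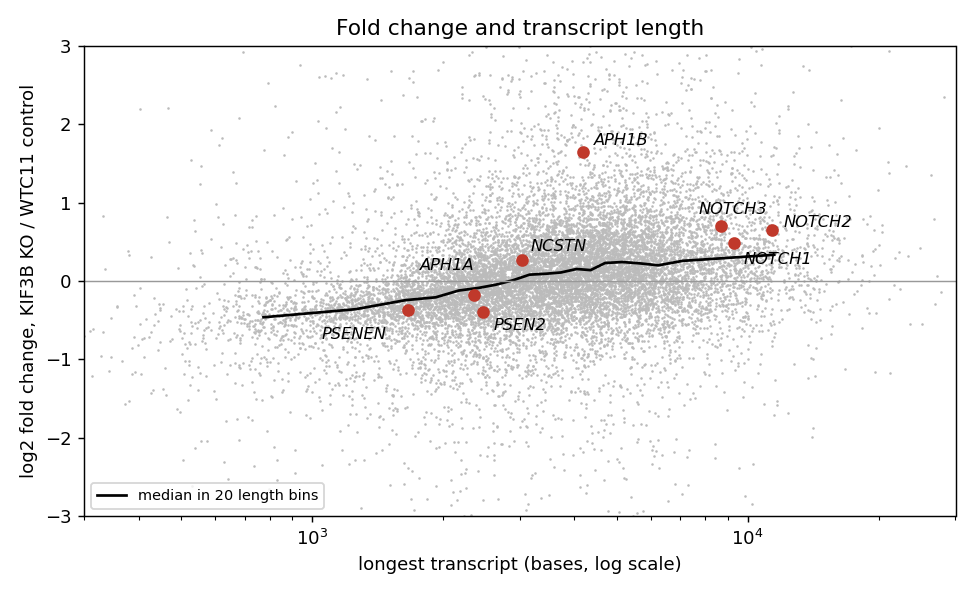
Log2 fold change of KIF3B knockout against WTC11 control by longest transcript length in bases (log axis), 1 grey point per gene, the 8 genes in red, and a line of medians in 20 length bins. The line climbs with length, the receptors lie a little above it at the right, and APH1B at 1.65 lies well above it. Of 14199 genes, 420 fall outside the axes.

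Markers of other cell types were also summed in these libraries. Of the classes examined, only the fibroblast sum did not overlap between the WTC11 controls and the KIF3B knockouts. In the WA09 controls that sum was 184 to 191 CPM. The summed level of 5 fibroblast markers was 139 to 156 CPM in the WTC11 controls and 194 to 436 CPM in the KIF3B knockouts, carried by COL1A1 and COL1A2, which reached 124 and 312 CPM in the second knockout. DCN and LUM were at 0 in every library, and COL3A1 did not exceed 0.359 CPM. The sum of 6 smooth muscle and pericyte markers, a cell class in which NOTCH3 is abundant, was 125 to 178 CPM against 160 to 292 CPM, and its defining gene MYH11 stayed at or below 7.82 CPM. RGS5, a pericyte marker of that list, measured 39.0 and 33.1 CPM in the WTC11 controls and 56.9, 67.8 and 59.6 CPM in the KIF3B knockouts. Every knockout was above both controls for RGS5, as for NOTCH3 and for 16.5% of all genes tested. For all other markers of that list the groups overlapped. TAGLN, the most abundant of them, measured 78.4 and 123 CPM against 91.3, 203 and 80.1 CPM. PDGFRB, another pericyte marker, measured 5.04 and 10.4 CPM against 8.40, 7.38 and 19.4 CPM. ACTA2 averaged 4.77 CPM in the WTC11 controls and 3.17 CPM in the KIF3B knockouts. Without the second knockout, in which both sums were highest, the NOTCH3 log2 difference was 0.65. Their part in the result was not tested further.

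The second comparison, KIF3A knockout against control in WA09 cells, used other libraries than the KIF3B comparison and was tested. The gene list was drawn up with earlier results known, and the spread of the single knockout library was taken from the other groups. All 8 genes had a lower fitted level in the knockout and none passed the threshold, with edgeR adjusted p = 1 for each. Of the 14216 genes tested, 7349 had a lower value as well. The 8 values all rest on the same knockout library, and that of APH1A was -0.01. The largest differences were in APH1B and NOTCH1. Over all genes tested edgeR called 0 of 14216 (0%), with 527 at an unadjusted p under 0.05, while limma voom called 0 and DESeq2 1. The KIF3A knockout was below both controls in 7 of the 8 genes, where 33% of all genes tested were, and above both in none, where 33.8% were.

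APH1B measured 52.6 and 60.7 CPM in the controls against 33.5 CPM in the KIF3A knockout. The exact binomial 95% interval of the knockout, 26.4 to 42 CPM, covers counting error only. The knockout was below both controls. The log2 difference was -0.76 ± 0.36, a fold of 0.592, with an unadjusted edgeR p of 0.0603 and an adjusted p of 1. Leaving out 1 library at a time or changing the method gave values from -0.86 to -0.65.

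NOTCH1 measured 34.5 and 21.5 CPM in the controls and 16.8 CPM in the knockout (95% interval 11.9 to 23), a log2 difference of -0.74 ± 0.49 (edgeR, unadjusted p = 0.167 and adjusted p = 1). Its interval reached the lower control, and the difference was -0.36 without WA09 control 1 and -1.04 without WA09 control 2. NOTCH3 measured 113 and 125 CPM against 93.5 CPM (81.3 to 107), a log2 difference of -0.35 ± 0.22 (edgeR, unadjusted p = 0.15 and adjusted p = 1). NOTCH2 measured 78.5 and 65.9 CPM against 60.0 CPM (50.3 to 71), a log2 difference of -0.27 ± 0.53 (edgeR, unadjusted p = 0.627 and adjusted p = 1). All 3 receptors were thus below both controls by amounts that the test did not separate from the spread.

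The remaining subunit genes stayed near their controls. APH1A measured 165 and 182 CPM against 172 CPM, between the controls (-0.01 ± 0.18). PSEN2 measured 68.7 and 66.6 CPM against 57.8 CPM (-0.23 ± 0.33), NCSTN 134 and 127 CPM against 118 CPM (-0.14 ± 0.22), and PSENEN 61.2 and 57.7 CPM against 53.4 CPM (-0.16 ± 0.32). A missed threshold with 1 knockout library does not show that these levels were alike. The receptors, NCSTN and APH1B had positive log2 differences in the KIF3B comparison and negative ones in the KIF3A comparison, and this difference between the knockouts was not tested. The knocked-out gene and the cell line cannot be told apart in this design.

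**Figure D5:**
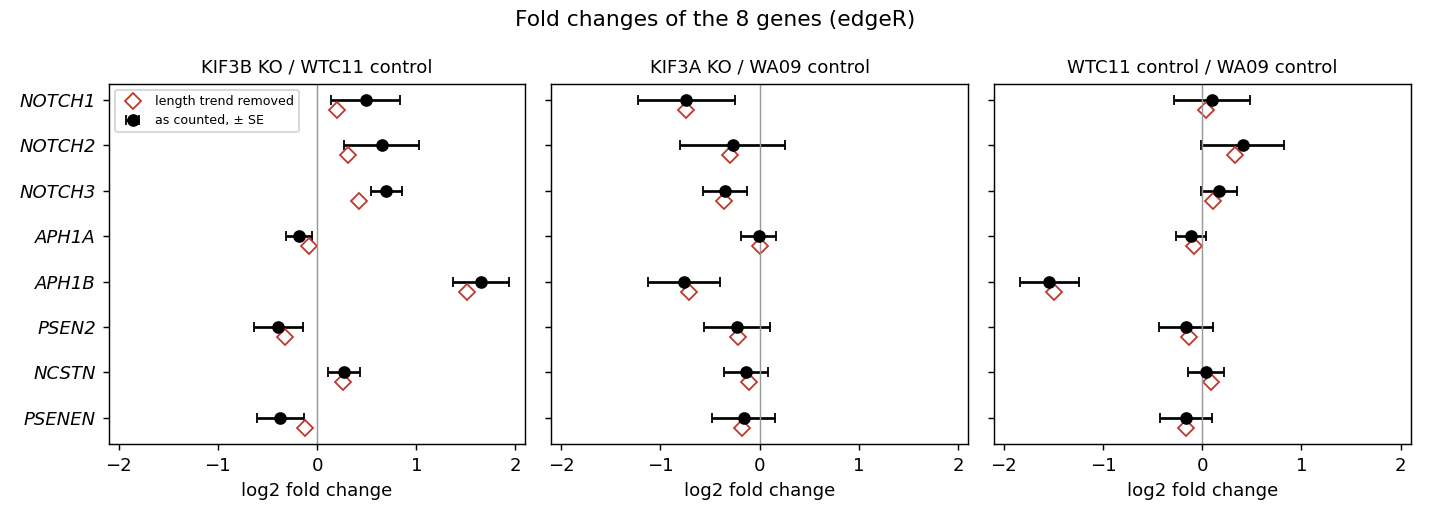
Log2 fold changes with SE bars from the edgeR fit for the 8 genes in the KIF3B, KIF3A and line comparisons. APH1B lies at 1.65 in the KIF3B comparison, at -0.76 in the KIF3A comparison and at -1.54 between the WTC11 and WA09 controls.

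The third comparison sets the controls of the lines side by side as a description, since the WTC11 controls were part of the values that chose APH1B. For APH1B, the WTC11 controls, at 22.5 and 16.3 CPM, were below the WA09 controls, at 52.6 and 60.7 CPM, by -1.54 ± 0.30 on the log2 scale. These WTC11 controls also enter the KIF3B comparison, so both values share them. The KIF3B knockouts, at 53.9 to 65.3 CPM, overlapped the WA09 controls, and the ratio of their means was 1.07. The third knockout, at 53.9 CPM, lay between the WA09 controls, and the first and second lay above them. The WTC11 controls were the lowest of the libraries.

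For the other 7 genes the line differences were small: 0.17 ± 0.18 for NOTCH3, 0.41 ± 0.42 for NOTCH2, 0.10 ± 0.38 for NOTCH1, 0.04 ± 0.18 for NCSTN, -0.11 ± 0.15 for APH1A, and -0.16 for PSEN2 and PSENEN. Both WTC11 controls were above both WA09 controls for NOTCH3 alone, where 23.6% of all genes tested were, and below both for APH1A, APH1B, PSEN2 and PSENEN, where 23.6% were. The signs of 3 of these values changed with a library left out: NOTCH2 to -0.51 without WTC11 control 1, NOTCH1 to -0.20 without WA09 control 2 and -0.05 without WTC11 control 2, and NCSTN to -0.07 without WTC11 control 2.

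The pathway around these genes was described with lists of its other components. In each knockout comparison edgeR called 0 of all 14216 genes tested, so no gene of any list could be called. Over all genes the median log2 fold change was 0.03 for KIF3B and -0.02 for KIF3A. Of the 6 ligand genes tested, 3 had higher and 3 lower values in each knockout (medians 0.27 and 0.10). JAG1, the ligand gene with the highest mean over the 8 libraries, averaged 37.7 ± 25.8 CPM in the WTC11 controls and 96.2 ± 42.4 CPM in the KIF3B knockouts, and the groups overlapped. DLL3, a divergent ligand that acts within the cell, averaged 28.7 ± 6.86 and 18.6 ± 9.09 CPM, and in the WA09 controls it was above JAG1 on average (67.5 against 50.7 CPM).

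Among genes for receptor maturation, 3 of 6 had higher values in the KIF3B knockouts (median 0.09) and 0 of 6 in the KIF3A knockout (median -0.55). POFUT1, which adds the O-fucose that ligands recognise, had log2 differences of 0.43 ± 0.29 and -0.26 ± 0.40 in these comparisons, and POGLUT1, which adds O-glucose, of -0.25 ± 0.22 and -0.09 ± 0.29. Of 9 sheddase genes and their carriers, 4 were higher in the KIF3B knockouts (median -0.08) and 5 in the KIF3A knockout (median 0.00). ADAM10, the protease that makes the first cut, averaged 150 ± 30.2 CPM in the WTC11 controls and 230 ± 8.74 CPM in the KIF3B knockouts. Every knockout was above both controls for ADAM10, as for 16.5% of all genes tested. Its log2 difference was 0.62 ± 0.23, and 0.31 with the length trend removed. TSPAN17, a tetraspanin that carries ADAM10, differed by 0.06 ± 0.26.

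Of 13 genes for ligand endocytosis and receptor turnover, 8 were higher in the KIF3B knockouts (median 0.19) and 5 in the KIF3A knockout (median -0.15). ITCH, a ubiquitin ligase that turns over Notch, averaged 54.7 ± 2.14 CPM in the WTC11 controls and 91.2 ± 15.8 CPM in the KIF3B knockouts. NUMB, which restrains Notch signalling, averaged 65.6 ± 8.5 and 90.6 ± 7.58 CPM. Both had every knockout above both controls, as did 16.5% of all genes tested. Their KIF3B log2 differences were 0.74 and 0.46, and 0.5 and 0.27 with the length trend removed. In the KIF3A comparison the log2 differences were -0.23 ± 0.28 for ITCH and 0.25 ± 0.25 for NUMB.

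In the nucleus, RBPJ, the DNA-binding partner of the Notch intracellular domain, was steady at 232 to 286 CPM over the 8 libraries, and its cofactor SNW1 ran from 116 to 144 CPM. Of the 7 genes of that complex, 5 were higher in the KIF3B knockouts (median 0.21) and 4 in the KIF3A knockout (median 0.10). Of 6 co-repressor genes, 3 were higher in each knockout (medians 0.16 and -0.08). HDAC1, a histone deacetylase, ran from 155 to 194 CPM, and KDM5A, a histone demethylase, from 49.4 to 143 CPM. All 6 co-repressor genes had higher values in the WTC11 than in the WA09 controls (median 0.47), as had 7023 of all 14216 genes tested (median -0.01).

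Target genes of Notch had mixed signs in both knockouts. Of 6 tested, 3 were higher in the KIF3B knockouts (median 0.03) and 3 in the KIF3A knockout (median -0.10). All 6 had lower values in the WTC11 than in the WA09 controls (median -0.27), as had 7176 of all 14216 genes tested (median -0.01). Some of the 6 were scarce: HES4, chosen after its values were seen, did not exceed 4.81 CPM in any library. HEY2, a transcriptional repressor, averaged 45.8 ± 10.9 CPM in the WTC11 controls and 49.6 ± 10.1 CPM in the KIF3B knockouts. NRARP, which feeds back on the Notch complex, averaged 21.6 ± 6.59 and 20.7 ± 2.88 CPM. In WA09 cells NRARP averaged 26.9 ± 3 CPM in the controls and was 9.70 CPM in the KIF3A knockout (-1.47 ± 0.54, edgeR unadjusted p = 0.0213, adjusted p = 1). HES1, a target gene chosen after its values were seen, was at 8.71 to 18.3 CPM, and HES5 had at most 3 counts in any library.

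Factors that assemble or modulate gamma-secretase were described in full. TMED10, a subunit of transport vesicles, ran from 290 to 335 CPM, RER1, which retains unassembled subunits, from 88.3 to 171 CPM, and UBQLN1, a ubiquitin-like chaperone, from 116 to 136 CPM. PTK7, a membrane protein also cut by the enzyme, averaged 84.5 ± 18.3 CPM in the WTC11 controls and 124 ± 19 CPM in the KIF3B knockouts, while GSAP had at most 8 counts. Of the 4 tested, 2 were higher in each knockout (medians 0.04 and 0.01).

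Of 13 other substrates of the enzyme, 11 were higher in the KIF3B knockouts (median 0.38, and 0.21 with the length trend removed) and 6 in the KIF3A knockout (median 0.00). CDH1, the adhesion protein E-cadherin, averaged 181 ± 11.4 CPM in the WTC11 controls and 321 ± 25.8 CPM in the KIF3B knockouts, a log2 difference of 0.82 ± 0.12. In WA09 cells it averaged 216 ± 21.4 CPM in the controls and 216 CPM in the knockout. APLP2, an amyloid precursor-like protein, differed by 0.22 ± 0.10 in the KIF3B and 0.22 ± 0.13 in the KIF3A comparison. Of 6 related intramembrane proteases, 5 were higher in the KIF3B knockouts (median 0.26) and 3 in the KIF3A knockout (median -0.01). HM13, the signal peptide peptidase, differed by -0.04 ± 0.13 and 0.15 ± 0.17, and SPPL2A by 0.14 ± 0.19 and -0.51 ± 0.26.

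Genes nearby had medians close to 0. Tested genes within 1000000 bases of each had median KIF3B log2 fold changes between -0.12 (around NOTCH1) and 0.16 (around PSEN2). Around APH1B the median of 14 neighbours was 0.02, against 1.65 for APH1B, and around NOTCH3 the median of 26 neighbours was -0.01.

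Genes with a pattern most like that of NOTCH3 over the 8 libraries, by Pearson's r of log2 CPM among 8761 genes, were USP22 (0.981), LIMD1 (0.979) and PDE4DIP (0.978). For APH1B they were CTPS2 (0.961), ITPKC (0.956) and CMTR2 (0.939). These are the highest of many correlations over 8 points that share libraries, depth and the length trend, and are given as a description.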

How the data were processed

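The authors deposited raw read counts per gene, not normalized, in 1 table of 8 libraries. Per the labels' protocols, small numbers of cells were lysed directly and libraries were made with SMART-seq chemistry and Nextera XT. The submitters' processing notes name STAR and hg38. Not given in the sources used here are the gene counter, its annotation, strand setting and treatment of duplicates. Groups and guide numbers came from the labels.

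Counts were fitted with edgeR 4.0.16 in R 4.3.3 (robust quasi-likelihood, TMM, filterByExpr, 1 mean per group, 14216 genes tested), with Benjamini-Hochberg adjustment at 0.05. The lone KIF3A knockout was assumed to vary like the other groups. A lowess trend on transcript length (span 0.5) was removed in an alternative, and DESeq2 1.42.0, limma voom 3.58.1, other scaling, no filter and leaving out libraries were tried. Intervals are exact binomial. All replicate pairs differed beyond sampling noise, with chi-square values of 6.01 to 8.48 per degree of freedom.

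The members and lists were chosen with earlier results of these data known. From each list, genes past the threshold were to be named, otherwise the 2 of highest mean CPM, with every gene of lists of 5 or fewer; 1 gene that this names is not reported here. Like patterns were sought among genes of at least 20 CPM. Promoters came from RefSeq.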

Additional observations from a re-analysis of the deposited data

How the results depend on the processing

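In the KIF3B comparison edgeR called 0 genes, with 2366 at an unadjusted p under 0.05. The count was 676 with no low-count filter, 246 with DESeq2, 0 with limma voom, and 0 to 5 when 1 library was left out, with 5 without WTC11 control 2. With the guide number as a replicate block it was 1. Guide numbers were not used as pairs in the main fit. The difference of guide 1 minus guide 2 in the controls correlated at 0.001 with that in the KIF3B knockouts, over 8761 genes. With a single difference per group, this cannot exclude that same-numbered libraries share their derivation. In the KIF3A comparison the count was 2 with no filter, 1 with DESeq2, and 0 to 1 when 1 library was left out, with 1 without WA09 control 2. The cause was not tested. All 8 KIF3B log2 fold changes kept their sign in the 14 settings run, but that of NOTCH2 ran from 0.10 to 1.57. The genes were selected on this comparison, and leaving out WA09 libraries hardly changed its values, so the kept signs are only a description. The KIF3A value of APH1A was 0.06 without WA09 control 2, -0.08 without WA09 control 1 and -0.01 with both, and it was 0.00 with the length trend removed. The KIF3A comparison cannot be refitted without its only knockout library. In WA09, where NOTCH1 had 38 to 88 counts per library, it is the gene of the 8 most limited by depth.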
